A study of Homo sapiens with 18 samples.

Results

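This account compares RNA of PEO1 cells after 8 h of estradiol with RNA of the same cells after 2 h, in both cases after knockdown of p53. PEO1 is an established line of human serous ovarian carcinoma, and the series title calls its p53 mutant. The members were chosen by their labels as the 3 samples of sip53 with 10 nM estradiol (E2) for 8 h and the 3 samples of sip53 with 10 nM E2 for 2 h, 6 of the 18 samples in the series. All cells, whatever their siRNA, had first spent 48 h in medium without phenol red that held charcoal-stripped serum. The other groups compared here are sip53 without E2 (0 h) and siControl with 10 nM E2 for 8 h and for 2 h. Each has 3 samples. The last group, siControl without E2 (0 h, 3 samples), was in no contrast. Its samples entered the model of all 18 samples, and so the spread behind the p-values, and the plot of small noncoding RNA levels. The labels name the siRNAs sip53 and siControl, the second of which the sample titles call sipNC, and there is 1 cell line, so effects of the reagent and of its target cannot be told apart. Whether the 3 samples of each group were grown as separate cultures is not in the labels, so the p-values here cover the spread among these samples only, and that spread may be technical.

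Estradiol is the main natural estrogen. It binds the estrogen receptor ESR1, a transcription factor that then occupies enhancers and promoters, directly or through partner factors such as AP-2 gamma, and recruits coactivators. Genes respond in waves: immediate-early genes are often switched on and off again within hours whereas other targets build up more slowly. A contrast of 2 hormone-treated times finds RNAs whose level differed between them. Telling a passed early peak from a later change also needs the 0 h level. No sample without E2 was taken at 2 or 8 h, so hours with E2 and hours in culture cannot be told apart.

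Levels are CPM, counts scaled to a common library size by the TMM method, from a kit that reads the 3' ends of polyadenylated transcripts. Total counts were 10401303 to 11307199 in the 8 h samples and 9557952 to 11183488 in the 2 h samples. In a principal component analysis of these 6 samples the first component (33.5% of the variance) placed the 8 h samples at 11 to 13.8 and the 2 h samples at -14.1 to -10.2. The second component (24.7%) spread the 8 h samples among themselves, with replicate 3 at 21.1 and replicate 2 at -14.9, while the 2 h samples lay between -1.7 and 0.6. Epithelial and ovarian carcinoma markers summed to 8920 to 9150 CPM at 8 h and 8270 to 9310 CPM at 2 h, although SOX17 was at 0. Fibroblast markers summed to 15.6 to 18.6 CPM at 8 h and 17.1 to 20.3 CPM at 2 h, with 6 of 10 at 0 in all 6 samples, among them DCN and COL3A1, and COL1A1 the most abundant at a mean of 7.54 CPM at 8 h and 10.2 CPM at 2 h. Leukocyte markers summed to 24.0 to 27.1 CPM at 8 h and 22.2 to 25.6 CPM at 2 h, with 8 of 13 at 0, among them PTPRC, and CD74 the most abundant at 10.4 CPM at 8 h and 7.91 CPM at 2 h. Endothelial markers summed to 3.45 to 4.37 CPM at 8 h and 3.79 to 5.16 CPM at 2 h, with 2 of 9, EMCN and PLVAP, at 0 and ERG the most abundant at 2.94 CPM at 8 h and 3.54 CPM at 2 h. None of the markers in these 3 lists that were tested was called, and their part in the results was not tested.

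Between 2 and 8 h, 211 of 15318 genes tested changed (1.38%), 126 of them higher (0.823%) and 85 lower (0.555%) at 8 h. The call is a Benjamini-Hochberg adjusted p under 0.05 in edgeR's quasi-likelihood test, and 1892 genes had an unadjusted p under 0.05. In bulk RNA, fewer cells with a transcript and less of it per cell cannot be told apart. The median log2 fold change was 0.88 among the higher genes, -0.59 among the lower genes and 0.01 over all genes tested. Protein-coding genes made up 88 of the 126 higher genes and 84 of the 85 lower genes. Many of the other higher rows were small noncoding RNAs, and 13 of them were repeats of U1 or U6 rows with identical counts. The count fell to 121, 108 and 118 without 2 h replicate 1, 2 or 3. DESeq2 called 406 genes, 227 higher and 179 lower. Leaving out 1 library at a time, 82 of the 211 calls (38.9%) held in all 6 fits, and genes named below held in all 6 unless losses are given.

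**Figure D1:**
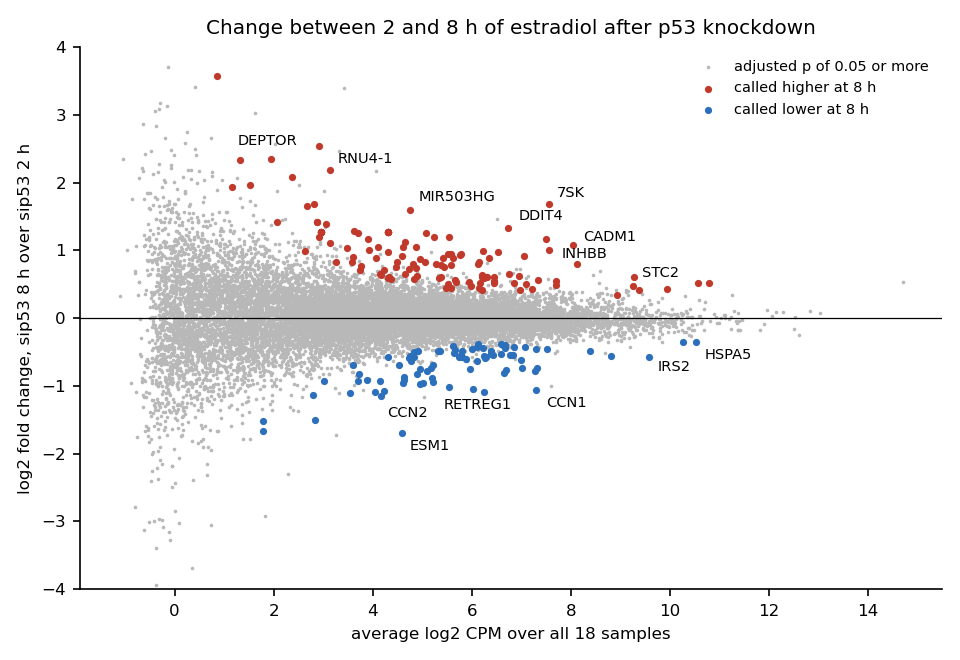
Each point is a gene, placed by its average level over all 18 samples (log2 CPM, x axis) and by its log2 fold change of sip53 8 h over sip53 2 h (y axis). Red points are the 126 genes called higher and blue points the 85 called lower. Grey points were not called, and 21 of them lie beyond the y axis. Called genes of high level include HSPA5 at -0.36, CADM1 at 1.08 and 7SK at 1.69.

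To place each called gene in time, its 0 h level was set against its 2 h and 8 h levels in sip53 cells on the log2 scale, with no test, since the 2 h and 8 h values chose the genes. The 0 h level lay nearer to the 2 h than to the 8 h level in 107 of the higher and 72 of the lower genes, and nearer to the 8 h level in 19 and 13. The distance between the 2 h and 8 h levels served as the unit. A change is called transient where 0 h lay within 0.2 of that distance from the 8 h level, on either side. It is a partial return where 0 h lay beyond the 8 h level by more than 0.2 of the distance. A change is called late where 0 h lay within 0.2 of the distance from the 2 h level, on either side. It is stepwise where 0 h lay beyond the 2 h level by more than 0.2 of the distance. In the remaining 55 higher and 21 lower genes 0 h lay between the levels of the other times. Against 0 h itself, 47 genes were called at 2 h in sip53 (0.307%), 41 higher (0.268%) and 6 lower (0.0392%), and 419 at 8 h (2.74%), 238 higher (1.55%) and 181 lower (1.18%). These contrasts share samples with the one described here, so their values are given beside it for single genes only.

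Transient and partly returning changes were few, and among protein-coding genes all of them had their highest level at 2 h. The 12 lower genes of this kind included CCN1, SOX9, TMCC3, EGR1, KLF7, LPIN1 and SH3RF2, which returned to near the 0 h level, and RETREG1, PFKFB3, SOX7 and TFAP2C, which returned in part. The call of SH3RF2 was lost in all 6 fits without a library (adjusted p up to 0.288). Calls held in 1 fit for KLF7 (without 8 h replicate 3) and LPIN1 (without 8 h replicate 1), with adjusted p up to 0.172 and 0.213 in the others. CCN1 encodes a secreted matrix-associated protein whose gene is a standard target of the coactivators YAP and MRTF. It had 106, 113 and 121 CPM at 8 h, against 233, 256 and 218 CPM at 2 h, and 117, 126 and 123 CPM without E2. The 8 h samples overlap the 0 h samples, and both lie far below the 2 h samples. The log2 fold change of 8 h over 2 h was -1.06 ± 0.17 (SE, edgeR adjusted p = 0.00075).

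SOX9 and SOX7 encode SOX-family transcription factors. SOX9 had 30.6, 34.4 and 24.3 CPM at 8 h, against 66.8, 52.8 and 53.4 CPM at 2 h, with 34.1, 24.2 and 30.7 CPM at 0 h (8 h over 2 h -0.95 ± 0.16, edgeR adjusted p = 0.00105). SOX7 had 18.5, 14.3 and 16.9 CPM at 8 h, against 31.1, 34.8 and 38.7 CPM at 2 h, with 8.88, 12.1 and 10.6 CPM at 0 h (-1.07 ± 0.19, edgeR adjusted p = 0.00262). SOX9 was thus back among its 0 h values at 8 h, while every 8 h value of SOX7 remained above every 0 h value. Against 0 h the 8 h log2 fold change was 0.00 for SOX9 (edgeR adjusted p = 0.997) and 0.66 for SOX7 (edgeR adjusted p = 0.0921). EGR1, an immediate-early zinc-finger factor, had 25.1, 26.8 and 25.4 CPM at 8 h, against 37.4, 43.1 and 48.6 CPM at 2 h (-0.74 ± 0.14, edgeR adjusted p = 0.00545), a call lost without 2 h replicate 3 (adjusted p = 0.0544). Of 25 measured immediate-early factors 1 was higher (FOSL2) and 2 lower (EGR1 and JUN), 14 lay above 0 and the median was 0.07. The shares of all genes tested were 0.823% higher and 0.555% lower, with a median of 0.01. JUN lost its call in every fit without a library (adjusted p up to 0.204). FOS, not called, had a mean of 5.08 CPM at 8 h and 2.98 CPM at 2 h.

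RETREG1 encodes a membrane receptor for autophagy of the endoplasmic reticulum. It had 59.6, 69.3 and 61.6 CPM at 8 h, against 130, 133 and 130 CPM at 2 h, and 38.3, 46.8 and 44.0 CPM at 0 h. It was higher than without E2 at both times, with log2 fold changes of 1.61 at 2 h (edgeR adjusted p = 1.88e-08) and 0.56 at 8 h (edgeR adjusted p = 0.00827), and the step down between the times was -1.04 ± 0.12 (edgeR adjusted p = 1.86e-05). PFKFB3, an enzyme that raises glycolytic flux, had 9.24, 9.10 and 9.78 CPM at 8 h, against 20.4, 21.6 and 18.4 CPM at 2 h (-1.10 ± 0.17, edgeR adjusted p = 0.00074). TFAP2C, which encodes AP-2 gamma, had 374, 365 and 423 CPM at 8 h, against 511, 544 and 565 CPM at 2 h (-0.48 ± 0.09, edgeR adjusted p = 0.00341). At 0 h its level was 226, 270 and 266 CPM, below every E2 sample. The related TFAP2A, for AP-2 alpha, went the other way, with 85.9, 82.2 and 97.7 CPM at 8 h, against 63.8, 62.8 and 59.4 CPM at 2 h (0.52 ± 0.11, edgeR adjusted p = 0.0114). That call was lost without 2 h replicate 2 or 3 or 8 h replicate 3, with adjusted p of 0.0564, 0.0758 and 0.079.

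**Figure D2:**
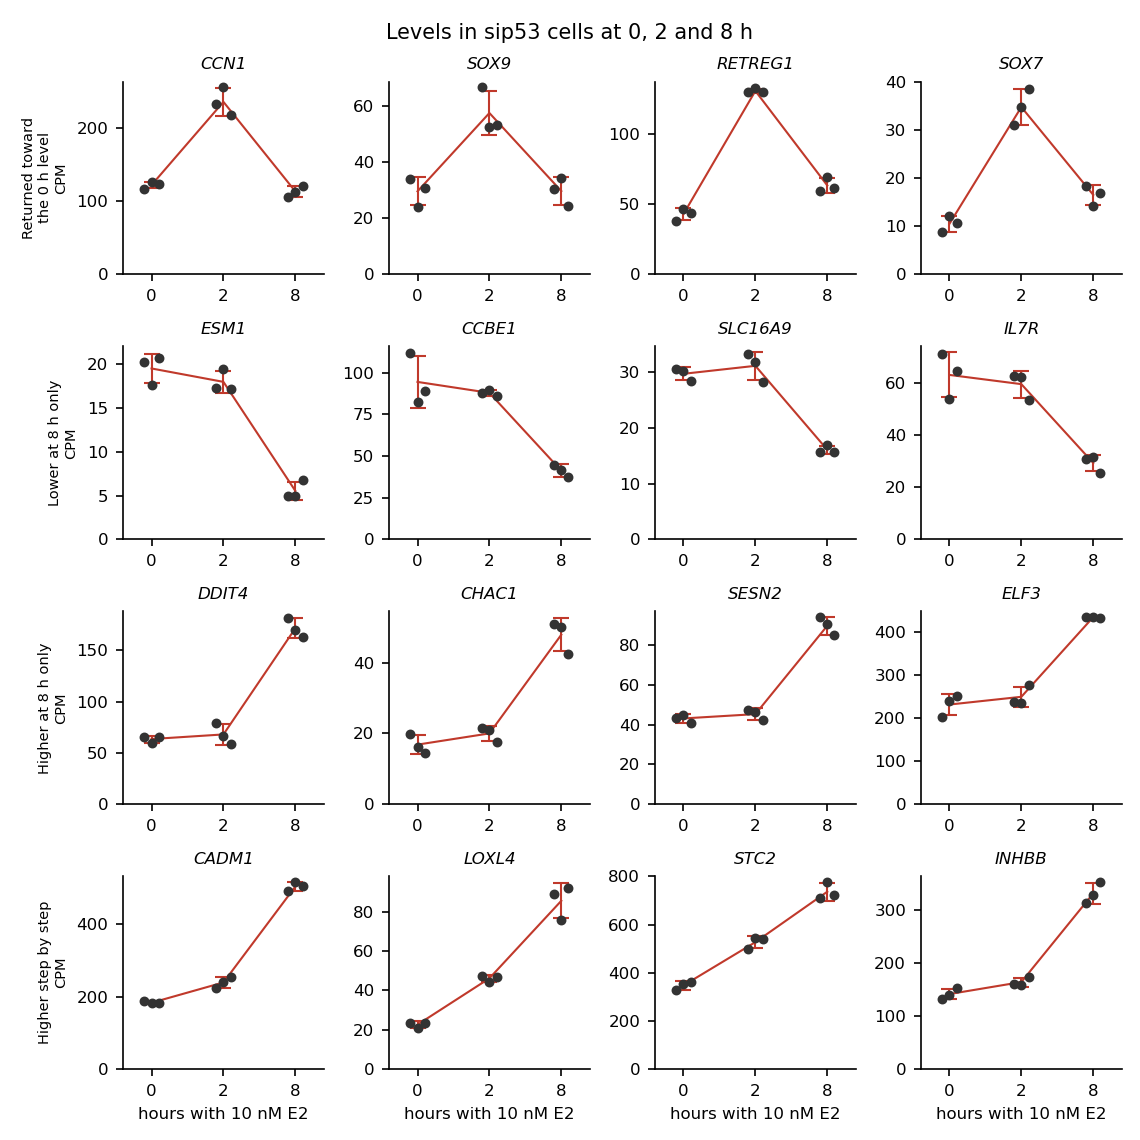
Levels of 16 genes in sip53 cells (CPM, y axis, from 0) at 0, 2 and 8 h with 10 nM E2 (x axis). Dots are the 3 samples of a group, and the red line and bars give the mean ± SD. In the top row the 2 h values stand above both other times. In the next rows 0 and 2 h lie close together and 8 h stands apart below or above, and in the bottom row the mean of each time exceeds that of the time before.

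The late lower set was the largest among the falling genes, with 44 of 85. ESM1, a secreted proteoglycan that other studies list among estrogen-repressed genes, had 4.89, 4.98 and 6.74 CPM at 8 h, against 17.3, 19.5 and 17.2 CPM at 2 h, with 20.3, 17.6 and 20.7 CPM at 0 h. Of 13 measured genes on the list of estrogen-repressed genes 1 was higher (EFNA1) and 1 lower (ESM1), against 0.823% higher and 0.555% lower of all genes tested, 8 lay above 0 and the median was 0.07. In ESM1 all 3 samples at 8 h lie below 7 CPM and the other 6 above 17. The log2 fold change of 8 h over 2 h was -1.70 ± 0.18 (edgeR adjusted p = 1.19e-05), the largest fall among called genes with an average log2 CPM of at least 3. CCBE1, a secreted factor needed for lymphatic vessel growth, had 44.8, 41.3 and 37.2 CPM at 8 h, against 88.0, 89.7 and 85.9 CPM at 2 h (-1.09 ± 0.13, edgeR adjusted p = 4.27e-05). IL7R, a cytokine receptor chain best known from lymphocytes, had 30.8, 31.4 and 25.6 CPM at 8 h, against 62.8, 62.2 and 53.5 CPM at 2 h (-1.02 ± 0.13, edgeR adjusted p = 4.79e-05).

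Other late falls included SLC16A9 and IRS2. SLC16A9, a transporter of the monocarboxylate family, had 15.7, 16.9 and 15.6 CPM at 8 h, against 33.3, 31.8 and 28.3 CPM at 2 h (-0.96 ± 0.12, edgeR adjusted p = 7.37e-05). IRS2, an adaptor of the insulin receptor, had 647, 666 and 732 CPM at 8 h, against 979, 1050 and 1010 CPM at 2 h (-0.57 ± 0.09, edgeR adjusted p = 0.00074). In both genes every 8 h sample was below every 2 h sample. That held for all 85 lower genes called, and none of the 126 higher genes overlapped either. KRTAP2-3, a keratin-associated protein gene with close copies among which reads may be split, had 6.84, 11.3 and 10.8 CPM at 8 h, against 20.5, 20.1 and 21.1 CPM at 2 h (-1.09 ± 0.20, edgeR adjusted p = 0.00261).

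CCN2, a paralog of CCN1 and another standard YAP target, differed from it in its course. It had 10.6, 11.4 and 12 CPM at 8 h, against 21.3, 26.3 and 27.7 CPM at 2 h, with 19.3, 21.1 and 19.4 CPM at 0 h (8 h over 2 h -1.15 ± 0.18, edgeR adjusted p = 0.00074). Its 8 h level was thus also below the 0 h level, by -0.81 on the log2 scale (edgeR adjusted p = 0.0117), where CCN1 stood at -0.11 (edgeR adjusted p = 0.839). Of 23 measured YAP and SRF targets, 2 were lower (CCN1 and CCN2) and 1 higher, NUAK2, a kinase with 22.6, 23.1 and 21.7 CPM at 8 h, against 9.60, 11.5 and 12.4 CPM at 2 h (1.01 ± 0.15, edgeR adjusted p = 0.000576). Over all genes tested 0.555% were lower and 0.823% higher, and the list median was -0.04. DUSP6, a phosphatase that switches off ERK, had 16.6, 21.9 and 22.1 CPM at 8 h, against 38.5, 40.2 and 39.0 CPM at 2 h (-0.96 ± 0.15, edgeR adjusted p = 0.000749). It was the 1 called gene of 19 measured MAPK feedback phosphatases and Sprouty genes, where 1.38% of all genes tested were called. HKDC1, a hexokinase family member, fell by 0.97 on the log2 scale (SE 0.15, edgeR adjusted p = 0.000749).

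The late higher set had 41 genes and included stress-response genes. DDIT4, an inhibitor of the growth kinase complex mTORC1, had 182, 170 and 163 CPM at 8 h, against 78.9, 66.9 and 58.4 CPM at 2 h, with 65.7, 59.6 and 65.4 CPM at 0 h (8 h over 2 h 1.33 ± 0.13, edgeR adjusted p = 5.06e-06). CHAC1, an enzyme that degrades glutathione, had 51.0, 50.2 and 42.5 CPM at 8 h, against 21.5, 21 and 17.5 CPM at 2 h (1.26 ± 0.15, edgeR adjusted p = 2.93e-05). Their 2 h over 0 h log2 fold changes were 0.10 and 0.25, which is what placed them in the late set. CHAC1 lay close to the limit between the late and stepwise sets. SESN2, a sestrin that restrains mTORC1, had 94.1, 90.6 and 85.0 CPM at 8 h, against 47.7, 46.2 and 42.2 CPM at 2 h (0.99 ± 0.12, edgeR adjusted p = 3.51e-05). DDIT3, the stress factor CHOP, had 69.6, 67.8 and 64.2 CPM at 8 h, against 34.6, 34.6 and 36.7 CPM at 2 h (0.93 ± 0.13, edgeR adjusted p = 0.000128).

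These 4 genes belong to a list of ATF4 stress-response genes, where ATF4 is a factor whose translation rises when amino acids run short or misfolded protein accumulates. Of 26 measured members 6 were higher and 0 lower, with a median log2 fold change of 0.09, against 0.823% higher and a median of 0.01 over all genes tested. The other called members were the chains of an amino acid exchanger. SLC3A2, the heavy chain, had 872, 964 and 867 CPM at 8 h, against 534, 593 and 659 CPM at 2 h (0.60 ± 0.09, edgeR adjusted p = 0.00074). SLC7A5, the light chain, had 1220, 1420 and 1310 CPM at 8 h, against 880, 972 and 1090 CPM at 2 h (0.43 ± 0.10, edgeR adjusted p = 0.0192), and its call was lost without 2 h replicate 1 or 2 or 8 h replicate 2 or 3 (adjusted p of 0.163, 0.109, 0.113 and 0.0571). Other members of the list did not pass the test. The transcript of ATF4 itself had 923, 868 and 847 CPM at 8 h, against 763, 768 and 770 CPM at 2 h (0.20 ± 0.10, edgeR adjusted p = 0.456). ASNS, which makes asparagine, stood at -0.04 ± 0.09 and PSAT1, of serine synthesis, at -0.08 ± 0.13 (edgeR adjusted p = 0.909 and 0.869).

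Promoter sequence is shown for the 2 genes per direction with the largest change among called genes with an average log2 CPM of at least 3, no overlap between the groups and an entry in the RefSeq promoter table (GRCh38.p14), as the 250 bases before the transcript start on the gene's strand, 5′ to 3′. CHAC1 and HSPA5 were added after their values and motifs were seen, because each holds a motif named for its pathway. The lncRNA gene MIR503HG (chrX:134546631-134546880, minus strand), DDIT4 (chr10:72273674-72273923, plus strand), ESM1 (chr5:54985594-54985843, minus strand), CCN2 (chr6:131951373-131951622, minus strand), CHAC1 (chr15:40953221-40953470, plus strand) and HSPA5 (chr9:125241344-125241593, minus strand) are given in that order. Capitals mark the letters of any of 7 motifs searched on both strands.
MIR503HG: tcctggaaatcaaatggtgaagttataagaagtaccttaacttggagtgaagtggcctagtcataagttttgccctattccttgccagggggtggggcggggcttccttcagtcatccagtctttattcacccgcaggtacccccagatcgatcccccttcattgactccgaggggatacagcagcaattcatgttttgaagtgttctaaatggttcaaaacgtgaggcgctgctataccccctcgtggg
DDIT4: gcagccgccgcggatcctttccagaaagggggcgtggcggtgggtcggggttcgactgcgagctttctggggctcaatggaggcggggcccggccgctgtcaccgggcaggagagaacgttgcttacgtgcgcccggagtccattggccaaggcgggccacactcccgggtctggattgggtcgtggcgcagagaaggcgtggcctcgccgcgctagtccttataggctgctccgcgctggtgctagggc
ESM1: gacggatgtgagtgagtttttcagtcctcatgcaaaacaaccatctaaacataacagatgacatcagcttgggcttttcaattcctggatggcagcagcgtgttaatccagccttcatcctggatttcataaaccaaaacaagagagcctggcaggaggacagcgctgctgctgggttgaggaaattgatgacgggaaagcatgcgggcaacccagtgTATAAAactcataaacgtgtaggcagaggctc
CCN2: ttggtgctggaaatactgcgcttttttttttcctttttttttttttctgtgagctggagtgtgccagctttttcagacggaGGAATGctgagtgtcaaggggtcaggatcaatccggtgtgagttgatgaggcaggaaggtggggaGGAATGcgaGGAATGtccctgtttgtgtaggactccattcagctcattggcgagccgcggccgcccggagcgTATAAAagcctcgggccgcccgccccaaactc
CHAC1: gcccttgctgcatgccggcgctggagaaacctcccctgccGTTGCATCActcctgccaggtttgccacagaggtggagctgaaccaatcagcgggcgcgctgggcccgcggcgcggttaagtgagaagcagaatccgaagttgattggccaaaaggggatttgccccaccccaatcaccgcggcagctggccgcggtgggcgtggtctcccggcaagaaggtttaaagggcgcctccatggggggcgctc
HSPA5: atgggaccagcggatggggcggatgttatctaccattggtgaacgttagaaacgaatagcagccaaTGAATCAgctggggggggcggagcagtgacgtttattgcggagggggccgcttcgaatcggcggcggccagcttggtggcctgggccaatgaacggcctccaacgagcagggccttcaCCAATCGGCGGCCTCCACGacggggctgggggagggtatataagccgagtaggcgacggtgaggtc
The motifs were the TEAD site GGAATG, in 11.9% of 27305 promoter windows of the same length, the TATA box TATAAA (11.1%), the AP-1 site TGANTCA (6.60%), the E-box CACGTG (6.49%), the ATF4 composite site TGATGNAAN (3.18%), the ER stress element, CCAAT and CCACG with 9 bases between them (0.0806%), and the estrogen response element, GGTCA and TGACC with 3 bases between them (0.0439%). The motifs found in these 6 windows do not overlap one another. CCN2 holds 3 TEAD sites, which start 169, 104 and 95 bases before the transcript start, and a TATA box at 32 bases. ESM1 has a TATA box at 32 bases. CHAC1 holds an ATF4 composite site on the opposite strand, at 210 bases. HSPA5 holds an ER stress element at 66 bases and the letters TGAATCA at 184 bases. These letters count as an AP-1 site here because the search allowed any middle base. In MIR503HG and DDIT4 none of these letters is found in this window. Of 203 called genes with a symbol 143 had an entry, and the ATF4 site was in 3 of 73 higher and 1 of 70 lower windows. The estrogen response element was in 0 of both. A match is a description of the letters and not of a bound site.

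The called chaperones of the endoplasmic reticulum were lower at 8 h. Of 24 measured members of that list 3 were lower, against 0.555% of all genes tested, and the list median was -0.18 with 5 members above 0. SDF2L1, a cofactor of the main chaperone, had 74.9, 74.3 and 77.5 CPM at 8 h, against 110, 101 and 115 CPM at 2 h (-0.53 ± 0.09, edgeR adjusted p = 0.00261). HSPA5, the main chaperone itself (BiP), had 1110, 1270 and 1170 CPM at 8 h, against 1510, 1530 and 1530 CPM at 2 h (-0.36 ± 0.08, edgeR adjusted p = 0.0123). In HSPA5, as in every lower gene called, all 8 h samples lay below all 2 h samples. The HSPA5 call was lost without 2 h replicate 2 or 3 or 8 h replicate 1 or 3 (adjusted p of 0.0745, 0.056, 0.0996 and 0.0537). PDIA4, a disulfide isomerase, fell by 0.55 on the log2 scale (edgeR adjusted p = 0.0141), lost without 2 h replicate 1 or 2 or 8 h replicate 1 or 2 (adjusted p of 0.102, 0.07, 0.0798 and 0.0547). The lectin chaperone CALR stood at -0.35 ± 0.09 and missed the threshold (edgeR adjusted p = 0.0513). The 1 higher member was XBP1, a transcription factor of the unfolded protein response and also a known estrogen target, with 97.8, 97.5 and 88.5 CPM at 8 h, against 62.0, 64.6 and 69.0 CPM at 2 h (0.54 ± 0.09, edgeR adjusted p = 0.00163).

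The median of 25 measured cholesterol synthesis and uptake genes was -0.19 and 2 of them lay above 0, whereas 7807 of the 15318 genes tested did. Among them INSIG1, a brake on sterol synthesis, stood at -0.42 ± 0.17 and did not pass the test (edgeR adjusted p = 0.268). The interferon response list had 1 higher and 2 lower genes of 30 measured and a median of -0.18, against 0.823% higher, 0.555% lower and a median of 0.01 over all genes tested. Its higher gene was the transcription factor IRF1, with 99.6, 99.2 and 74.9 CPM at 8 h, against 48.4, 50.8 and 58.2 CPM at 2 h (0.80 ± 0.14, edgeR adjusted p = 0.00169). The antiviral enzyme RSAD2 had 19.7, 17.3 and 19.0 CPM at 8 h, against 30.1, 39.8 and 29.5 CPM at 2 h (-0.82 ± 0.15, edgeR adjusted p = 0.00254). The other lower gene, the antiviral effector IFIT3, lost its call in every fit without a library except that without 2 h replicate 2 (adjusted p of 0.0503 to 0.13).

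**Figure D3:**
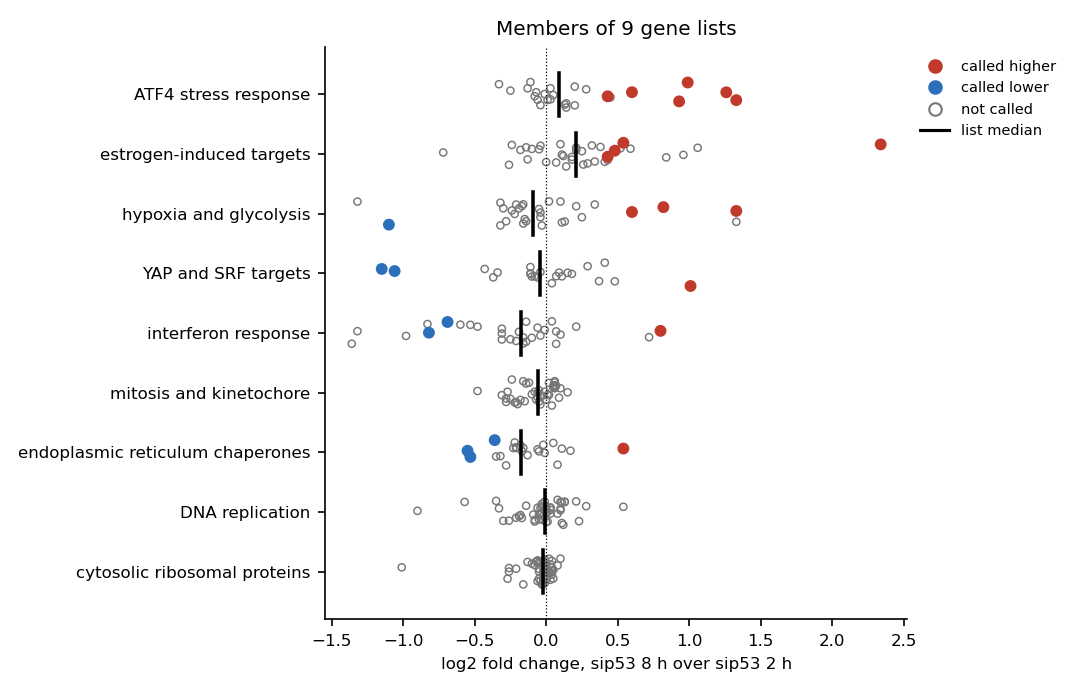
Log2 fold change of sip53 8 h over sip53 2 h (x axis) for the measured members of 9 gene lists (rows, with vertical scatter only to separate points). Filled points passed the test, open points did not, and black bars are list medians. Members called higher in the ATF4 list lie between 0.43 and 1.33, and the medians of the endoplasmic reticulum chaperone and interferon lists both lie at -0.18.

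The stepwise set, placed only by where the mean at 0 h lay and not by a test of the first interval, held 26 of the 126 higher genes. CADM1, a cell adhesion molecule, had 492, 515 and 504 CPM at 8 h, against 223, 241 and 253 CPM at 2 h, with 187, 181 and 181 CPM at 0 h (8 h over 2 h 1.08 ± 0.10, edgeR adjusted p = 1.47e-06). INHBB, which encodes the beta B chain of activin and inhibin, had 314, 328 and 353 CPM at 8 h, against 161, 158 and 174 CPM at 2 h (1.01 ± 0.13, edgeR adjusted p = 4.79e-05). LOXL4, a lysyl oxidase of the matrix, had 88.8, 75.5 and 92.1 CPM at 8 h, against 47.5, 44.2 and 46.6 CPM at 2 h (0.89 ± 0.16, edgeR adjusted p = 0.00255). LOXL4 gained about as much before 2 h as after it, with a log2 fold change of 1.03 at 2 h over 0 h (edgeR adjusted p = 0.00168), while CADM1 gained 0.38 by 2 h (edgeR adjusted p = 0.112).

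Of 36 measured estrogen-induced targets 4 were higher and 0 lower, 27 lay above 0 and the list median was 0.21. Over all genes tested 0.823% were higher and 0.555% lower, 7807 of 15318 lay above 0 and the median was 0.01. STC2, a secreted glycoprotein, had 710, 778 and 721 CPM at 8 h, against 500, 543 and 538 CPM at 2 h, with 327, 352 and 363 CPM at 0 h (8 h over 2 h 0.48 ± 0.08, edgeR adjusted p = 0.00191). DEPTOR, an inhibitor of mTOR, had 14, 11.2 and 8.83 CPM at 8 h, against 2.58, 2.21 and 1.90 CPM at 2 h (2.34 ± 0.45, edgeR adjusted p = 0.00588), a call lost without 2 h replicate 3 (adjusted p = 0.0515). XBP1 and SLC7A5, given above, were the other called members. Some textbook targets did not pass the test. GREB1, a cofactor of ESR1, had 6.04, 3.45 and 5.98 CPM at 8 h, against 2.13, 2.74 and 3.07 CPM at 2 h, with few counts (0.96 ± 0.43, edgeR adjusted p = 0.358). MYC, a growth-driving transcription factor, stood at 0.21 ± 0.21 (edgeR adjusted p = 0.757), CCND1, which encodes cyclin D1, at 0.07 ± 0.10 (edgeR adjusted p = 0.845) and the receptor ESR1 at -0.08 ± 0.12 (edgeR adjusted p = 0.845). MYC had 33.2, 40.2 and 42.1 CPM at 8 h and 30.9, 37.5 and 31.1 CPM at 2 h, groups that overlap and that both lie above its 16.4, 15.2 and 16.8 CPM at 0 h. PGR, the progesterone receptor gene, had 5 counts in all 18 samples and was not tested.

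Further higher genes included transcription factors. HES1, a repressor that acts below Notch, had 387, 262 and 280 CPM at 8 h, against 158, 134 and 124 CPM at 2 h (1.16 ± 0.18, edgeR adjusted p = 0.00074). DLX1, a homeobox factor, had 17.7, 18 and 21 CPM at 8 h, against 7.91, 8.21 and 7.04 CPM at 2 h (1.29 ± 0.18, edgeR adjusted p = 0.000156). MIR503HG, the host transcript of a microRNA cluster, had 41.7, 32.5 and 61.8 CPM at 8 h, against 17, 13.8 and 14 CPM at 2 h (1.60 ± 0.25, edgeR adjusted p = 0.00074). In HES1 and MIR503HG the 8 h samples spread over more than the gap between their lowest value and the highest 2 h value, though the groups do not overlap. ELF3, an epithelial ETS factor, was tight by contrast, with 436, 436 and 433 CPM at 8 h, against 237, 235 and 277 CPM at 2 h (0.80 ± 0.10, edgeR adjusted p = 4.79e-05). It was the 1 called gene of the 18 measured epithelial and ovarian carcinoma markers, where 1.38% of all genes tested were called. HBEGF, a ligand of the EGF receptor, and FOSL2, an AP-1 subunit, were higher by log2 fold changes of 0.52 ± 0.09 and 0.60 ± 0.11 (edgeR adjusted p = 0.00261 for each).

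In lists of cell growth and division 0 genes were called, which for lists of 23 to 50 genes is near the 1.38% called over all genes tested. These were 49 measured DNA replication genes (median -0.01), 40 of mitosis and the kinetochore (-0.06), 24 G1 cyclins and CDK inhibitors (0.08), 49 of ribosome biogenesis (-0.05), 50 cytosolic ribosomal protein genes (-0.02), 23 of homologous recombination (0.09) and 38 nuclear-encoded respiratory chain genes (-0.06). Of 32 measured genes on a list of p53-activated targets 2 were higher and 0 lower, with a median of 0.07, against 0.823% higher, 0.555% lower and a median of 0.01 over all genes tested. They were SESN2 and GADD45A, a stress-inducible growth arrest gene, which had 90.0, 119 and 93.6 CPM at 8 h, against 57.4, 50.8 and 45.6 CPM at 2 h (0.97 ± 0.17, edgeR adjusted p = 0.00157). CDKN1A, the cell-cycle inhibitor p21, overlapped between the groups and stood at 0.14 ± 0.18 (edgeR adjusted p = 0.819).

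Small nuclear and other small noncoding RNAs were among the higher genes. These RNAs carry no poly(A) tail, the feature from which the kit primes, and they exist in many near-identical copies among which the authors' counting could split reads. The 7SK RNA, which holds the elongation kinase P-TEFb inactive, had 459, 289 and 238 CPM at 8 h, against 108, 97.0 and 101 CPM at 2 h, with 139, 138 and 138 CPM at 0 h (8 h over 2 h 1.69 ± 0.20, edgeR adjusted p = 3.89e-05). All rows of the spliceosomal U1 RNA summed to 288, 197 and 199 CPM at 8 h, against 107, 93.6 and 97.9 CPM at 2 h. The U4 row RNU4-1 had 22.3, 14.2 and 15.5 CPM at 8 h, against 4.36, 3.26 and 3.70 CPM at 2 h (2.19 ± 0.27, edgeR adjusted p = 4.27e-05). Replicate 1 at 8 h was the highest sample in each of these. Of 46 snRNA rows tested 19 were higher and 0 lower, against 0.823% and 0.555% of all genes tested. The 19 are 7 distinct count patterns once repeats are counted once. In fits without a library RNVU1-7 lost its call each time (adjusted p up to 0.198). RNU4-2 lost it in all but that without 8 h replicate 2 (up to 0.286). The identical U6 rows lost it when a 2 h replicate or 8 h replicate 1 was left out (up to 0.188). All snRNA rows together summed to 643, 464 and 440 CPM at 8 h, against 258, 234 and 242 CPM at 2 h, with 353, 330 and 308 CPM at 0 h. All rows of U3 RNA summed to 142, 100 and 79.0 CPM at 8 h, against 59.7, 42.1 and 43.3 CPM at 2 h, with 112, 71.0 and 67.2 CPM at 0 h. The U3 rows SNORD3B-1 and SNORD3B-2 and the row RN7SL2 were placed as transient, lowest at 2 h. Each lost its call when a 2 h replicate or 8 h replicate 1 was left out (adjusted p up to 0.256). Among 8 replication-dependent histone rows, whose mRNAs also lack a poly(A) tail, 0 were called, and they summed to 238, 411 and 127 CPM at 8 h, against 188, 215 and 195 CPM at 2 h. The order of the 8 h replicates thus differs between histones and snRNAs. Without small noncoding RNA, unnamed and repeated rows, an alternative chosen after seeing the data, 169 genes were called, 51.5% of them higher. Whether RNA quality or priming had a part in these values was not tested.

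**Figure D4:**
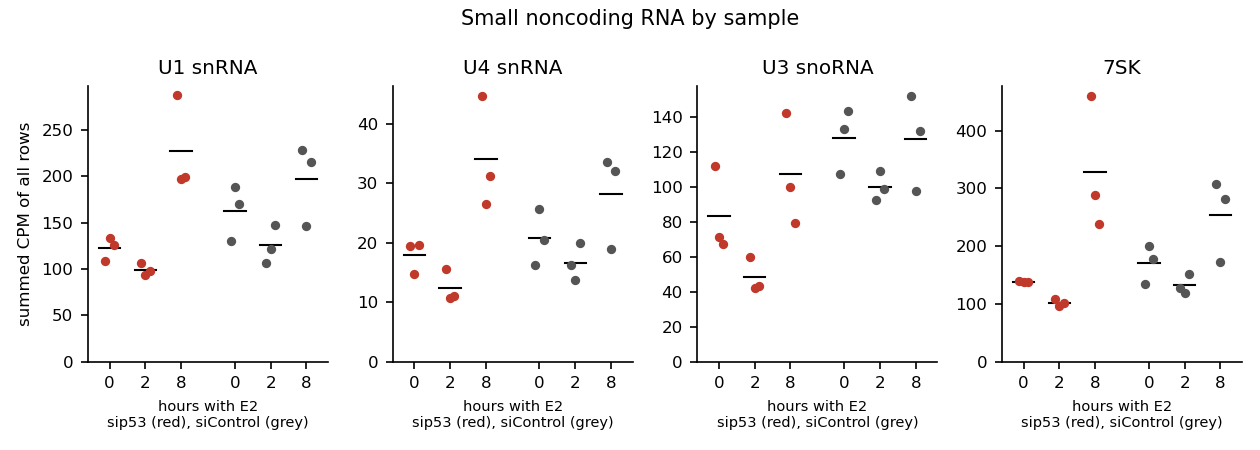
Summed CPM (y axis, from 0) of all rows of U1, U4 and U3 RNA and of 7SK in each of the 3 samples of a group (dots) with the group mean (line), at 0, 2 and 8 h (x axis), sip53 in red and siControl in grey. In sip53 the 8 h samples lie above the 2 h samples in all 4 panels, and 8 h replicate 1, the leftmost dot, is the highest.

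The same contrast in siControl cells shares no sample with this one. There 157 of 15318 genes changed (1.02%), 99 higher (0.646%) and 58 lower (0.379%) at 8 h. The 2 sets had 71 genes in common, all in the same direction, which is 33.6% of the sip53 calls and 45.2% of the siControl calls. All 211 sip53 calls had the same sign in siControl, against 65.3% of all genes tested that had the same sign in both arms. Across 9878 genes with an average log2 CPM of at least 3 the log2 fold changes of the arms had Pearson's r = 0.55, a description over genes, which are not independent replicates. The siControl median of the sip53 calls was 0.53 for the 126 higher genes, against 0.88 in sip53, and -0.43 for the 85 lower genes, against -0.59 in sip53. The sip53 values chose these genes, so the smaller siControl medians do not show a weaker response.

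A test of the difference between the arms called 0 of 15318 genes in edgeR and 0 in DESeq2, with 508 genes at an unadjusted p under 0.05 in edgeR. The median SE of the difference was 0.20 among the 211 sip53 calls. ESM1 differed by 0.07 ± 0.25 between the arms and CCN1 by -0.20 ± 0.24. The value of SESN2 was larger in siControl. It had 141, 166 and 153 CPM at 8 h, against 58.7, 51.7 and 49.4 CPM at 2 h in siControl, a log2 fold change of 1.53 ± 0.12 there and a sip53 minus siControl difference of -0.54 ± 0.16 (unadjusted p = 0.003, edgeR adjusted p = 1). TXNIP, a glucose-sensing arrestin, was higher in siControl, with 47.8, 59.5 and 39.0 CPM at 8 h, against 22.7, 23.1 and 21.2 CPM at 2 h (1.13 ± 0.17, edgeR adjusted p = 0.000421). In sip53 it had 19.4, 21.5 and 20.9 CPM at 8 h, against 14.1, 16.6 and 12.2 CPM at 2 h (0.53 ± 0.17, edgeR adjusted p = 0.155), and the difference of the arms was not called (edgeR adjusted p = 1). RNU4-1 had the lowest unadjusted p for the difference among the sip53 calls, at 0.00233, with 15.4, 7.69 and 11.8 CPM at 8 h, against 7.04, 5.04 and 6.37 CPM at 2 h in siControl.

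**Figure D5:**
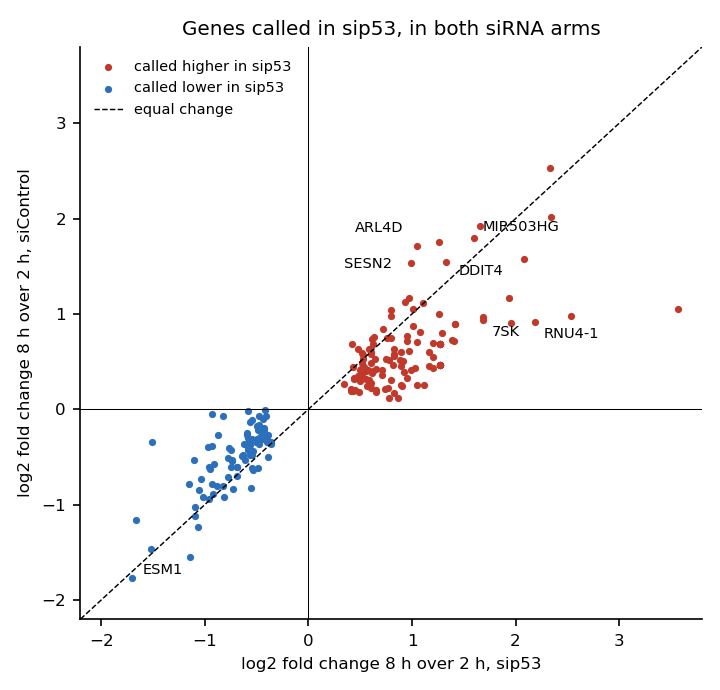
Log2 fold change of 8 h over 2 h in sip53 (x axis) and in siControl (y axis) for the 211 genes called in sip53, red where higher and blue where lower there. The dashed line marks equal change. All points lie in the lower left or upper right quadrant, with medians of 0.88 and -0.59 on the sip53 axis, by which they were chosen, and of 0.53 and -0.43 on the siControl axis.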

How the data were processed

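The authors deposited RSEM expected counts per gene for all 18 samples. Tools listed in the submitters' processing notes are cutadapt, Bowtie2, RSEM 1.3.3 and MultiQC, with build hg19. The annotation was not given in the sources used here. Every deposited expected count was already whole, and rounding was without effect. The 57736 rows, each a set of transcripts, were named through GENCODE v29. A single gene named 52673 rows, and rows left without a name held 0.635% of counts. Coordinates are on GRCh38 and none was used with the counts. The targeted gene and some single genes are not reported here.

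Genes were filtered with filterByExpr (minimum count 10) and scaled by TMM. One edgeR 4.0.16 quasi-likelihood model (R 4.3.3) took in all 18 samples, with a coefficient for each group and 12 residual degrees of freedom. DESeq2 1.42.0 was an alternative, and others were scalings, no filter, fits to the groups of a contrast alone, a replicate block and each library left out. The biological coefficient of variation was 15.2%, above counting error for most genes named. Tested on simulated data for sip53 8 h against 2 h, over 15318 genes, the model called 68% and 74% of genes changed by a log2 of -1 and 1, 16% and 22% at -0.5 and 0.5, and 0.0397% of unchanged genes. Within groups no library was a copy of another: the chi-square over its degrees of freedom was 4.04 or more. Libraries of different groups were not compared in this way.

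Members, 35 gene lists and named genes were chosen with earlier results of these data known. The rule named the 12 called genes per direction with the largest log2 fold change whose groups did not overlap and whose average log2 CPM was 3 or higher. It added up to 4 called members per list and direction, 5 genes per time course and direction, and a fixed set including ESR1, GREB1, PGR, MYC, CCND1 and TXNIP. Other list members may be named. Lists were described by counts and medians, with no set test.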

Additional observations from a re-analysis of the deposited data

How the results depend on the processing

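Under the alternatives run 77 of 78 named genes kept their sign, and CDKN1A, not called, stood at -0.04 without 8 h replicate 1. Between sip53 8 h and 2 h the count of 211 became 406 with DESeq2 (227 higher, 179 lower), 361 in a fit to those 2 groups alone (214 and 147) and 403 without the low-count filter (264 and 139). Leaving out 1 library gave 108 to 153 genes, 59 to 93 higher and 45 to 62 lower. In siControl the count of 157 became 350 with DESeq2, 313 without the filter and 81 to 105 with 1 library left out. The difference between the arms gave 42 genes without the filter and 0 in each fit that left out 1 library. Against 0 h, sip53 gave 204 genes at 2 h and 701 at 8 h without the filter, and 29 to 44 and 208 to 345 with 1 library left out.

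Replicate numbers paired the samples poorly. For each gene with a mean log2 CPM of at least 3, the group mean was first taken off each sample's log2 CPM. What remained correlated at 0.08, 0.1 and 0.01 between same-numbered sip53 8 h and 2 h samples, and at -0.16 to 0.07 between differently numbered ones. Whether same-numbered samples share more than a number is not in the labels. The replicate block gave 205 genes (121 higher, 84 lower). Without the filter the time courses held 66 stepwise, 129 late, 158 in-between, 35 transient and 15 partly returning genes. Limits of 0.3 and 0.7 gave 45 in-between genes, and without small noncoding RNA and repeated rows 6 were transient. With 1 library left out there were 14 to 41 stepwise, 45 to 84 late, 29 to 95 in-between, 3 to 11 transient and 4 to 7 partly returning genes.

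Depth limits the low genes. GREB1 and DEPTOR, with few counts, have standard errors of 0.43 and 0.45, against 0.08 for STC2. A gene that misses the threshold is not shown to be unchanged.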

Other observations

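Several more genes that held in all 6 fits without a library were picked here after their values were seen. The insulin receptor gene INSR had 155, 166 and 164 CPM at 8 h, against 99.1, 107 and 109 CPM at 2 h in sip53 (log2 fold change 0.62 ± 0.11, edgeR adjusted p = 0.0017), while its adaptor IRS2 was lower, as given above. INPP4B, a phosphatase of phosphoinositides, had 59.0, 72.4 and 53.8 CPM at 8 h, against 36.3, 29.7 and 34.7 CPM at 2 h (0.88 ± 0.13, edgeR adjusted p = 0.000484). SLIT2, a secreted guidance cue, had 46.6, 57.9 and 58.0 CPM at 8 h, against 30.9, 29.4 and 33.0 CPM at 2 h (0.80 ± 0.13, edgeR adjusted p = 0.001). As in every higher gene called, the groups do not overlap and the siControl value lay above 0, here at 0.69, 0.52 and 0.31.

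Among lower genes picked in the same way, ITGB6, an epithelial integrin chain, had 64.9, 89.4 and 76.7 CPM at 8 h, against 131, 142 and 133 CPM at 2 h in sip53 (-0.81 ± 0.12, edgeR adjusted p = 0.000296). COL8A1, a short-chain collagen, had 16.9, 14.4 and 15.3 CPM at 8 h, against 30.5, 31.5 and 26.5 CPM at 2 h (-0.92 ± 0.15, edgeR adjusted p = 0.00074). SQSTM1, the autophagy receptor p62, had 355, 336 and 340 CPM at 8 h, against 489, 513 and 515 CPM at 2 h (-0.56 ± 0.09, edgeR adjusted p = 0.00142).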
